A study of Physcomitrium patens with 6 samples.

Results

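The protein kinase genes of the moss Physcomitrella patens were described here across gametophyte development, from 3 days after protoplast isolation to the leafy shoot. A gene was counted as a protein kinase gene when its Gene Ontology (GO) text in the deposited tables named protein kinase activity, a serine/threonine or histidine kinase, or protein phosphorylation. Genes with a term for transcription factor activity, a photosystem or the thylakoid were left out (3 genes), as were 3 further genes that are not reported. The members were also chosen by their measured values, since each needed over 100 tags in at least 1 of the 6 libraries. This gave 234 genes at 231 loci, out of 661 genes with the same terms at any count, 9003 genes over 100 tags and 19265 gene models with a value. At the edge of this threshold, Pp1s233_24V6.1 and Pp1s31_29V6.1 reached 102 tags and were kept, whereas Pp1s223_130V6.1 reached 99 tags and was not.

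Protein kinases transfer phosphate from ATP to other proteins, and protein phosphatases take it off again. In plants the family holds receptor kinases at the cell surface, calcium-dependent protein kinases (CPKs) that read calcium signals, mitogen-activated and SNF1-related kinases that relay hormone, stress and energy signals, and cyclin-dependent kinases that drive the cell cycle. Histidine kinases pass phosphate along a two-component relay, and among them, or built like them, are the cytokinin and ethylene receptors and the light-sensing phytochromes.

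Transcripts were counted by digital gene expression (DGE), in which the enzyme NlaIII cuts cDNA at CATG and a tag of 21 bases that begins at this site is sequenced and counted. There were 6 libraries with 1 per condition, wild-type by all that the labels give: day 3, day 14, day 24 and day 30 after protoplast isolation, and chloronema and caulonema cells cut out of 14-day-old protonema by laser-capture microdissection. The methods describe the day 3, day 14 and day 24 material as protonema, the filamentous stage, and the day 30 material as leafy shoots, although the tissue label of all 4 days reads leafy shoot. RNA of 3 biological replicates was pooled before each library was made, from 6 µg for the 4 days and 2 µg for the captured cells. Pooled replicates leave no measure of their spread. All intervals below are therefore 95% exact intervals that cover counting error only, and copies made by PCR are not independent molecules, so they are too narrow. In such whole-tissue libraries, fewer cells that express a gene and less RNA per cell cannot be told apart.

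Each deposited value is listed with 1 tag at 1 CATG position of a gene, numbered from the 3′ end of its transcript. It is read below as the count at that position. The methods take the tags mapped to a gene as its level, and whether a value also holds tags of other positions was not checked. The tags of members that recur below are shown because each names the position that was counted, with the CATG site in capitals.
OST1 (Pp1s116_98V6.1), position 1: CATGacgaagatgtttggatg
VIK (Pp1s136_112V6.1), position 1: CATGgctccagaggtgtttct
SK13 (Pp1s52_55V6.1), position 1: CATGtaagtgtatcctaatgt
MPK12 (Pp1s20_265V6.1), position 1: CATGgaggtcagtatgtcaag
PHOTA2 (Pp1s179_27V6.1), position 1: CATGaagaatgggatgttgta
Sensory histidine kinase (Pp1s343_34V6.2), position 1: CATGcgagtttgttcacctag
CDKB1;1 (Pp1s127_92V6.1), position 1: CATGctgattgggaattgaac
cpk7 (Pp1s309_91V6.1), position 2: CATGtaattttggtttcagag
cpk1 (Pp1s96_216V6.1), position 1: CATGccctcctttgtctcgaa
The next pairs belong to genes that were counted at different positions in different libraries.
CKA1 (Pp1s165_119V6.1), position 3: CATGacaattatgatcaactt
CKA1 (Pp1s165_119V6.1), position 1: CATGtaagtattttccatcta
cpk9 (Pp1s205_14V6.6), position 3: CATGtgcatgagaggaaatga
cpk9 (Pp1s205_14V6.6), position 2: CATGagaggaaatgattactg
CAK1AT (Pp1s121_167V6.1), position 2: CATGgccatggataccaggac
CAK1AT (Pp1s121_167V6.1), position 1: CATGgataccaggacgagcct
Pp1s271_9V6.1, position 3: CATGgaacattcattttatac
Pp1s271_9V6.1, position 1: CATGgatttgagttccacttc

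In CKA1, the casein kinase alpha subunit, position 3 was counted at days 3, 14 and 24 and position 1 at day 30 and in both captured libraries. The same division held for 7 of the 209 kinase genes listed in all 6 libraries (3.35%, against 6.13% of all genes over 100 tags and listed in all 6), and in each of the 7 the day 30 and captured libraries used the position nearer the 3′ end. These genes were CKA1, cpk9, the phototropin PHOTB1 (Pp1s84_194V6.1), SNF1a (Pp1s28_12V6.1), Pp1s271_9V6.1, Pp1s207_100V6.1 and Pp1s87_157V6.1. For cpk9 and CAK1AT both positions lay 6 bases apart and their tags shared 15 bases. Over all 234 genes, 141 had 1 position wherever they were listed and 93 had more than 1.

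**Figure D1:**
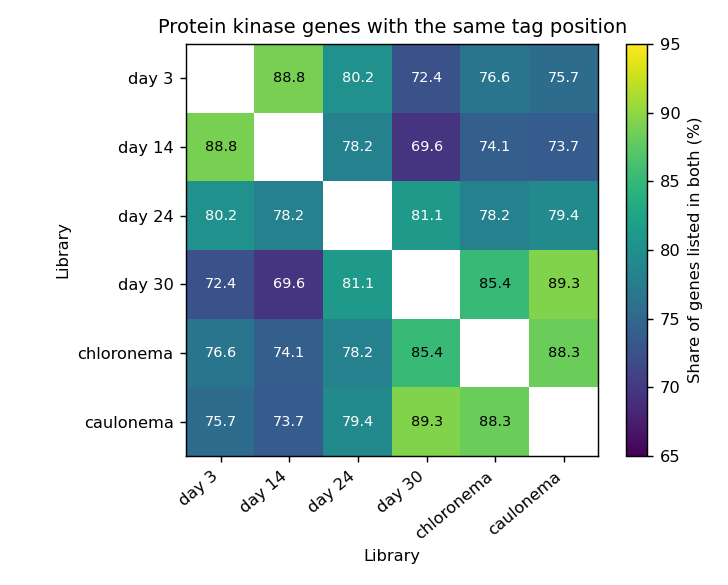
Share of the protein kinase genes listed in both libraries of a pair (%) that were counted at the same tag position; both axes give the library and the colour and number give the share. Day 30 shared the position with caulonema for 89.3% of genes and with day 14 for 69.6%.

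The kinase genes were thus counted at the same tag position more often within days 3 and 14 (88.8% of the genes in both) and within day 30 and the captured libraries (85.4 to 89.3%) than across these sets (69.6 to 76.6%). The position map of the 6 libraries shows day 24 between them, at 78.2 to 81.1% with each of the other 5 libraries. All genes over the tag threshold had the same pattern, at 91.0% within days 3 and 14 and 73.1 to 76.5% across the sets. Within day 30 and the captured libraries their share was 90.7 to 92.1%. The pattern was therefore not particular to the kinase genes. Levels were ordered alike in part. Spearman's rho over the 234 genes, given as a description of libraries that differ in depth and share the preparation, was 0.712 for day 3 with day 14, 0.642 for day 14 with day 24, 0.315 for day 24 with day 30, 0.235 for day 14 with day 30 and 0.584 for day 30 with caulonema. Over all genes above the tag threshold, rho for the same pairs in this order was 0.69, 0.658, 0.401, 0.368 and 0.609. The libraries of day 30 and of the captured cells were also the shallower ones, with 1733082 to 2557991 gene tags. Those of days 3, 14 and 24 had 5857712 to 7027742. The part of position and depth in any difference between day 24 and day 30 was not tested.

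The GO rule gathered more than kinases. A kinase activity term was present in 233 of the 234 genes, and Pp1s30_56V6.1 had entered through negative regulation of protein phosphorylation alone. A term from a list of 9 other activities was carried by 29 genes: structural molecule activity by 7, oxidoreductase activity on CH-CH groups by 7, disulfide oxidoreductase activity by 3, lyase activity by 4 and phosphatase activity by 3, with the rest spread over motor, hydrolase, esterase, mannosyltransferase and nucleotide kinase terms. Endoribonuclease activity (Pp1s65_71V6.1) and coupled ATPase activity (2 genes, Pp1s40_169V6.1 among them) were not on that list, so these 3 genes count with the other 205, called below the genes without another activity. Several of the genes with the most tags were among the 29. Of the 205, Pp1s40_169V6.1 was among the 3 highest at days 14, 24 and 30 and in caulonema. Pp1s271_9V6.1, whose terms name the small ribosomal subunit, had 6003, 10865, 14348 and 3032 tags at days 3, 14, 24 and 30, beside 3752 chloronema and 5564 caulonema tags. Pp1s79_255V6.1, placed in a ribonucleoprotein complex, had 4210, 10038, 4134 and 448 tags at the 4 days, beside 1006 chloronema and 514 caulonema tags. Pp1s1_405V6.5, with an oxidoreductase term and jasmonic acid metabolism, had 10475, 1949, 895 and 2631 tags at the 4 days, beside 334 chloronema and 641 caulonema tags. Tags that belong to a kinase cannot be told from tags of a gene that only shares a term, so the 205 genes are given separately wherever they change a count. The set of 29 was drawn up after the values were seen, and it includes CDKB1;1, whose other term is motor activity, and crk2 (Pp1s159_42V6.1), a CPK-related kinase by its database match.

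The 234 genes took up 1.67%, 1.21%, 1.81% and 1.36% of all gene tags at days 3, 14, 24 and 30, beside 1.08% for chloronema and 1.34% for caulonema. Day 14 and chloronema were the low libraries of their groups. The swing in share lay in these 205 genes, which held 0.995% at day 3 (Clopper-Pearson interval 0.987 to 1.003%), 0.630% at day 14 (0.624 to 0.635%), 1.24% at day 24 (1.23 to 1.25%) and 0.896% at day 30 (0.884 to 0.908%). They held 0.553% of the chloronema tags (0.542 to 0.564%) and 0.851% of the caulonema tags (0.840 to 0.863%). The share of the 29 others moved less and in another order, at 0.676, 0.581, 0.574 and 0.459% over the 4 days. The 661 genes of any count, to which the threshold of 100 tags was not applied, held 1.79, 1.29, 1.96 and 1.58% over the 4 days. By share, day 14 was again the lowest, whereas their TMM-scaled sums of 19356, 15553, 19719 and 14624 were lowest at day 30.

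**Figure D2:**
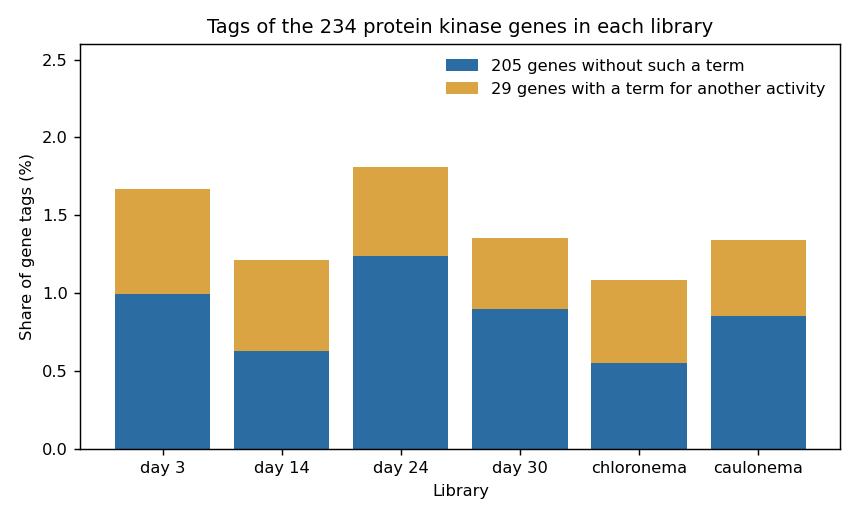
Share of all gene tags (%) taken by the protein kinase genes in each library, with the 29 genes that carry a term for another activity stacked on the 205 that do not. The 205 genes rise from 0.630% at day 14 to 1.24% at day 24, and from 0.553% in chloronema to 0.851% in caulonema.

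A gene was called different between 2 libraries when it had over 100 tags in at least 1 of them, differed by over 2-fold after scaling by trimmed mean of M-values (TMM), and had an exact binomial p under 0.01 and a Benjamini-Hochberg adjusted p under 0.001 over all genes tested. Such a call compares the libraries and not the conditions. A level below is in scaled TPM, the count per 1000000 tags of the TMM-scaled library size, which is not the deposited TPM. Because 1 tag is made per transcript, a count does not grow with the length of the gene, but it does depend on the position cut.

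Between day 3 and day 14 the kinase genes were called lower more often than higher. Of 180 tested, 22 were higher and 56 lower at day 14, and 102 were not called. In all genes tested, 40.4% were called, 20.1% higher and 20.3% lower, whereas the kinase genes were 12.2% higher and 31.1% lower. Their median log2 ratio was -0.50, against 0.07 for all genes tested. Among the 205 genes without another activity, 14 of 154 tested were higher and 50 lower. Only 102 kinase genes had over 100 tags in both libraries, and of these 8 were higher and 16 lower (7.84 and 15.7%, against 16.2 and 12.5% of all such genes), with a median log2 ratio of -0.29, against 0.10 for all such genes.

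The members that fell most at day 14 were of several kinds. Pp1s13_276V6.1, annotated only with protein kinase activity, had 399 tags at day 3, 11 at day 14, 127 at day 24 and 143 at day 30, with 9 chloronema and 8 caulonema tags. It was 37.1-fold lower at day 14 than at day 3 (20.5 to 75.0), then 11.6-fold higher at day 24 (6.25 to 23.8) and 2.67-fold higher than that at day 30 (2.09 to 3.42). Both captured libraries, which were cut from protonema of the same age as the day 14 library, were low as well. Pp1s102_217V6.1, a leucine-rich repeat kinase of the receptor type by its Arabidopsis homologue, went from 467 to 59 tags, 8.10-fold lower at day 14 (6.17 to 10.8). Pp1s326_44V6.1 went from 3029 tags at day 3 to 594, 185 and 32 at days 14, 24 and 30, and was called lower at each step, by 5.22-fold (4.78 to 5.71), 3.20-fold (2.71 to 3.80) and 2.44-fold (1.67 to 3.67). Its tag position changed from 5 at days 3 and 14 to 2 at day 24 and 1 at day 30, so only the first of these steps compares the same tag. Other steep falls were in genes of the 29. Pp1s526_2V6.1, with an oxidoreductase term, had 4091, 290, 17 and 7 tags over the 4 days and was 14.4-fold lower at day 14 than at day 3 (12.8 to 16.3). Pp1s351_24V6.1, of the same kind, went from 4506 to 1164 tags, and Pp1s370_45V6.3, with a structural term, from 149 tags to 4 at another position.

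The 22 genes that were higher at day 14 included cell cycle kinases. CDKB1;1 (Pp1s127_92V6.1), a plant-specific cyclin-dependent kinase that acts in cell division in Arabidopsis, was not listed at day 3 and had 109, 53 and 18 tags at days 14, 24 and 30, with 73 chloronema and 94 caulonema tags. Against a floor of 3 tags for a value that is not listed, it was at least 35.5-fold higher at day 14 than at day 3. The putative cyclin-dependent kinase A (Pp1s25_198V6.7), a core kinase of the cell cycle, rose from 47 to 143 tags, by 2.97-fold (2.12 to 4.22). CAK1AT (Pp1s121_167V6.1), a CDK-activating kinase by its Arabidopsis homologue, took another course, with 1422, 802 and 1099 tags at days 3, 14 and 24 and no call between them. Of the 6 genes with cell cycle or microtubule terms, 4 were tested at this step, and 2 were higher and 0 lower. Of all genes tested, 20.1% were higher and 20.3% lower. By its terms this list also holds the phototropin PHOTA2 (Pp1s179_27V6.1), which had 85 and 69 tags and was not tested at this step. A lectin-type kinase (Pp1s155_56V6.1) rose from 19 to 190 tags, by 9.77-fold (6.08 to 16.6), and a leucine-rich repeat kinase (Pp1s13_59V6.1) from 99 to 438 tags, by 4.32-fold (3.47 to 5.43). HK5 (Pp1s15_65V6.1), a histidine kinase by its Arabidopsis homologue, rose from 96 to 208 tags, by 2.12-fold (1.65 to 2.72), across tag positions 3 and 1.

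**Figure D3:**
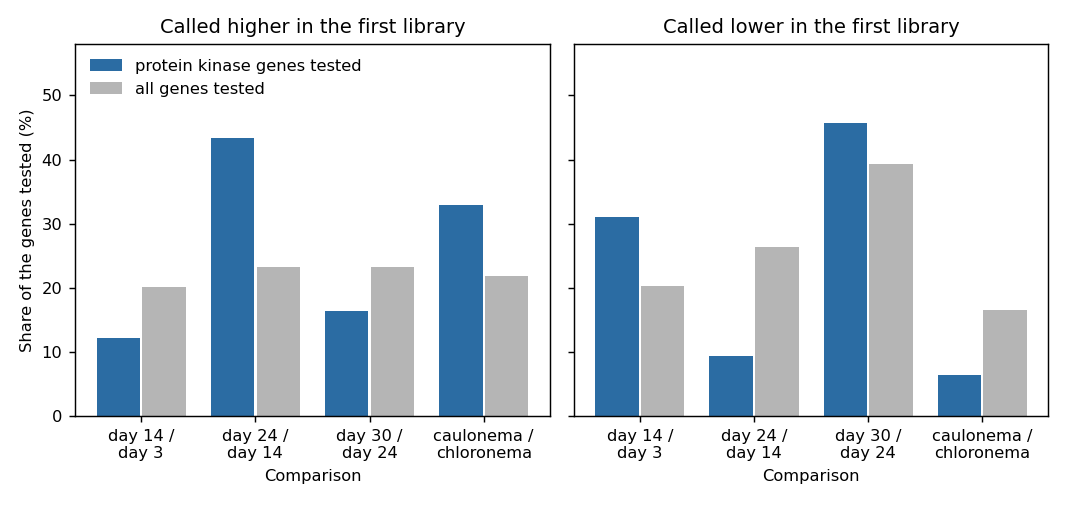
Share of the genes tested (%) that were called higher (left) or lower (right) in the first library of each comparison, for protein kinase genes and for all genes. For day 24 over day 14 the kinase bar stands at 43.3% higher, beside 23.2% for all genes, and for caulonema over chloronema at 33.0%, beside 21.8%.

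Between day 14 and day 24 the direction turned. Of 201 kinase genes tested, 87 were higher and 19 lower at day 24, and 95 were not called. Of all genes tested, 49.5% were called, 23.2% higher and 26.4% lower, against 43.3% and 9.45% of the kinase genes. The median log2 ratio was 0.89, against -0.06 for all genes. Without the 29 genes that carry another activity, 82 of 173 were higher and 10 lower. Scaling to total gene tags in place of TMM raised the median of all genes to 0.20 and gave 108 higher and 9 lower kinase genes. Over 100 tags in both libraries were found for 109 kinase genes, of which 26 were higher and 9 lower (23.9 and 8.26%, against 13.9 and 21.2% of all such genes), with a median of 0.37, against -0.10 for all such genes. Without any threshold on the counts, 159 of the 602 kinase-term genes with a tag in either library were higher and 39 lower (26.4 and 6.48%, against 17.25 and 17.3% of all genes with a tag in either library).

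Kinases of hormone and stress signalling were among those that rose. OST1 (Pp1s116_98V6.1), a SNF1-related kinase of abscisic acid signalling in Arabidopsis, had 809 tags at day 3, 550 at day 14, 3132 at day 24 and 58 at day 30, with 153 chloronema and 337 caulonema tags. It was 5.71-fold higher at day 24 than at day 14 (5.21 to 6.26) and then 22.8-fold lower at day 30 (17.6 to 30.0). VIK (Pp1s136_112V6.1), which binds a receptor kinase of leaf vein cells in Arabidopsis, had 139, 152, 687 and 7 tags at the 4 days, with 15 chloronema and 22 caulonema tags. Day 24 alone stood out in both genes, at 537 and 118 scaled TPM. For VIK it was 4.53-fold above day 14 (3.80 to 5.44) and 41.4-fold above day 30 (20.0 to 103). The 16 kinase genes with hormone terms were all tested at this step, and 9 were higher and 2 lower. Of all genes tested, 23.2% were higher and 26.4% lower, and of all kinase genes tested 43.3% and 9.45%. This list includes Pp1s1_405V6.5, one of the 29 genes with a term for another activity.

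SK13 (Pp1s52_55V6.1), a shaggy-like kinase of the glycogen synthase kinase 3 type, had 79, 62, 263 and 36 tags at the 4 days, beside 26 chloronema and 132 caulonema tags. It was 4.25-fold higher at day 24 than at day 14 (3.21 to 5.70) and 3.08-fold lower at day 30 (2.17 to 4.49). Another shaggy-related kinase, Pp1s306_43V6.1, had 117, 91, 298 and 30 tags at the 4 days, beside 17 chloronema and 111 caulonema tags. Both were highest at day 24, where Pp1s306_43V6.1 was 3.28-fold above day 14 (2.59 to 4.20, across tag positions 1 and 2), and both were higher in caulonema than in chloronema, SK13 by 2.90-fold (1.89 to 4.60) and Pp1s306_43V6.1 by 3.73-fold (2.23 to 6.62). MPK12 (Pp1s20_265V6.1), a mitogen-activated protein kinase, was not listed at day 3 and had 3, 111 and 8 tags at days 14, 24 and 30. The ratio of day 24 to day 14 was 37.1, and with 3 tags at day 14 its interval ran from 12.4 to 183. SNF1b (Pp1s7_365V6.1), one of a pair of moss homologues of the yeast energy sensor, had 195, 60, 367 and 26 tags and was called lower, higher and lower in turn. Its partner SNF1a (Pp1s28_12V6.1), at 433, 267, 460 and 106 tags, was not called at any step, and its tag position differed between days 24 and 30. YAK1 (Pp1s132_192V6.1), named for a yeast growth regulator, followed SNF1b with 275, 89, 317 and 25 tags.

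Among kinases with no more than a general annotation, Pp1s14_81V6.3 had 2, 27, 542 and 371 tags at the 4 days, 15 in caulonema and no value in chloronema, and it was 20.1-fold higher at day 24 than at day 14 (13.7 to 30.8). Pp1s69_82V6.1 had 40, 37, 430 and 2 tags, with 23 chloronema and 108 caulonema tags, and was 11.6-fold higher at day 24 (8.32 to 16.8). The first of these stayed high at day 30 and the second did not. The 19 genes that were lower at day 24 than at day 14 included a histidine kinase, Pp1s318_13V6.1, with 313 and then 90 tags, 3.47-fold lower (2.74 to 4.44) across tag positions 3 and 2. Genes with an oxidoreductase or structural term were among them too: Pp1s2_216V6.1 with 1847 and 269 tags, Pp1s58_106V6.1 with 2073 and 510 tags, and Pp1s274_79V6.2 with 248 and 78 tags.

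**Figure D4:**
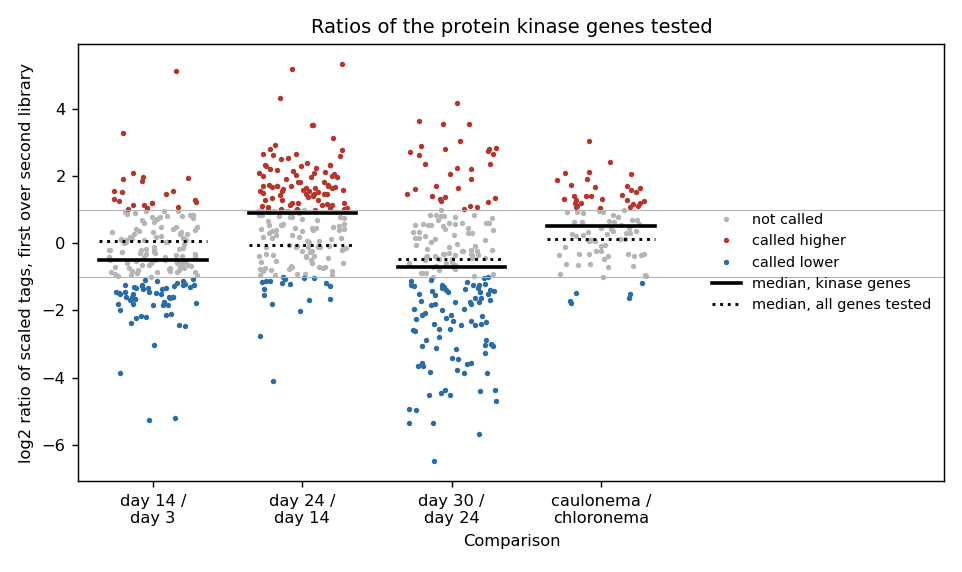
log2 ratio of the scaled tags in the first library over the second for each protein kinase gene tested in the 4 comparisons (points, coloured by call; sideways spread only separates them), with the median of the kinase genes (solid) and of all genes tested (dotted). Thin lines mark a 2-fold difference. The medians of the kinase genes were -0.50, 0.89, -0.70 and 0.50, against 0.07, -0.06, -0.48 and 0.13.

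Between day 24 and day 30, when the tissue sampled changed from protonema to leafy shoot, more kinase genes were called than at any other step. Of 195 tested, 32 were higher and 89 lower at day 30, and 74 were not called. Of all genes, 62.4% were called, 23.2% higher and 39.3% lower, and of the kinase genes 62.1% were called, 16.4% higher and 45.6% lower, so the share called was near that of all genes. The median log2 ratio was -0.70 for the kinase genes and -0.48 for all genes. The day 30 library was the shallower, and 112 of the kinase genes tested passed 100 tags only at day 24 and 14 only at day 30. In the 69 that passed in both, 18 were higher and 15 lower (26.1 and 21.7%, against 33.9 and 16.8% of all such genes), so the surplus of lower genes was not seen there, and the median turned to 0.17, against 0.43 for all such genes.

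Some members had few or no tags at day 30. Pp1s281_115V6.1 had 714, 393 and 292 tags at days 3, 14 and 24 and was not listed at day 30, at least 41.0-fold lower than at day 24, with 7 chloronema tags and 37 caulonema tags. Pp1s31_3V6.1 had 196, 206 and 217 tags and was not listed at day 30, at least 30.5-fold lower, nor in chloronema, and had 2 tags in caulonema. Pp1s31_26V6.1, with 148 tags at day 24 and no value at day 30, was at least 20.8-fold lower. Pp1s69_82V6.1 went from 430 to 2 tags, a ratio of 90.6 with an interval from 24.9 to 750. CAK1AT went from 1099 to 20 tags at the same position, 23.2-fold lower (14.9 to 38.1), and had 19 chloronema tags and 37 caulonema tags. The low values of CAK1AT and Pp1s31_3V6.1 were thus shared by day 30 and the captured cells, whereas whole protonema at day 14 had 802 and 206 tags, and CAK1AT was counted at position 1 in the captured cells and at position 2 on all days. Other genes were alike in this. The 89 genes lower at day 30 had a median log2 ratio of -1.11 between the captured cells together and day 14, with 46 over 2-fold lower and 11 over 2-fold higher, while the 32 genes higher at day 30 had a median of 1.003, with 16 over 2-fold higher and 0 over 2-fold lower. Over all the kinase genes this median was -0.03, and over all genes past 100 tags it was -0.17. Of 8803 such genes with a ratio, 2509 were over 2-fold lower and 1550 over 2-fold higher in the captured cells. The ratio was not taken for all genes called lower or higher at day 30. The likeness therefore cannot be read as particular to the kinase genes. Development and whatever else day 30 shares with the captured libraries cannot be told apart here.

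The kinase genes that were higher at day 30 included light and hormone receptors. Phytochrome 4 (Pp1s164_65V6.1), a receptor of red and far-red light, had 44, 11, 69 and 208 tags at the 4 days, with 53 chloronema and 97 caulonema tags, and was 7.15-fold higher at day 30 than at day 24 (5.42 to 9.54). The ethylene receptor ETR1 (Pp1s1_338V6.3) had 76, 70, 136 and 272 tags, with 85 chloronema and 116 caulonema tags, and was 4.75-fold higher (3.85 to 5.88). In both genes the captured cells lay above every day before day 30, at 30.2 and 31.6 scaled TPM for phytochrome 4 and 48.5 and 37.7 for ETR1. STN7 (Pp1s159_111V6.1), the kinase that adjusts light harvesting between the photosystems, had 150, 133, 70 and 193 tags and was 6.54-fold higher at day 30, and it too was high in chloronema (160 tags) and caulonema (147 tags). Pp1s199_143V6.1, a histidine kinase, had 41, 56, 21 and 161 tags and a ratio of 18.2 (11.5 to 30.2), but at day 24 it was counted at position 2 and elsewhere at position 1. Pp1s198_133V6.1, at 32, 16, 27 and 142 tags, was 12.5-fold higher (8.23 to 19.6), and Pp1s392_39V6.1, at 124, 111, 50 and 246 tags, was 11.7-fold higher (8.59 to 16.2). Pp1s378_42V6.1 rose from 51 to 252 tags and Pp1s40_207V6.1, a membrane kinase, from 202 to 604 tags, 7.10-fold (6.04 to 8.36).

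The summed level of the 21 histidine kinase genes was 525, 364, 823 and 858 scaled TPM at days 3, 14, 24 and 30, with levels of 345 for chloronema and 584 for caulonema, so it was low at day 14 and in chloronema and high at the last stages. At day 24, 10 of 16 tested were higher than at day 14 and 1 lower, and at day 30, 5 of 17 were higher than at day 24 and 7 lower. Of all genes tested, 23.2% were higher and 26.4% lower at day 24, and 23.2% higher and 39.3% lower at day 30, so the histidine kinase counts at day 30 were near these shares. Counts of this kind describe a list whose members share the sampling of the same libraries and were not tested as a group. Pp1s343_34V6.2, a sensory histidine kinase by its database match, had 112, 60, 528 and 398 tags at the 4 days, beside 49 chloronema and 465 caulonema tags. It was 8.82-fold higher at day 24 than at day 14 (6.74 to 11.7) and 5.42-fold higher in caulonema than in chloronema (4.03 to 7.43). Its near namesake Pp1s336_63V6.2 had 716, 448, 877 and 26 tags at the 4 days, beside 17 chloronema and 31 caulonema tags, and was 14.2-fold lower at day 30 (9.63 to 21.9). One gene of this pair was thus high at day 30 and in caulonema, where the other was near its lowest.

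Cytokinin receptors of Arabidopsis carry the CHASE domain, and their homologue WOL (Pp1s113_161V6.2) had 326, 72, 308 and 22 tags at the 4 days, beside 34 chloronema and 124 caulonema tags. It was called in all 4 comparisons, 4.64-fold lower at day 14 (3.58 to 6.07), 4.29-fold higher at day 24 (3.31 to 5.62), 5.90-fold lower at day 30 (3.83 to 9.55) and 2.08-fold higher in caulonema (1.41 to 3.14). Its position was 3 at days 3 and 14, 2 at day 24 and 1 in the other libraries, so the steps to day 24 and to day 30 compare different tags. The genes matched to a cytokinin receptor, Pp1s1_57V6.1 (49, 49, 175 and 36 tags) and Pp1s7_429V6.1 (189, 63, 52 and 21 tags), had their maxima at day 24 and day 3. The osmosensor-like kinases Pp1s179_12V6.1 (50, 24, 149 and 25 tags) and Pp1s41_302V6.1 (86, 58, 165 and 46 tags) were higher at day 24 than at day 14, by 6.22-fold (4.03 to 10.02, across tag positions 4 and 1) and 2.85-fold (2.10 to 3.92). The ethylene receptors were highest at day 30: besides ETR1, ETR3 (Pp1s54_307V6.1) had 145, 133, 234 and 234 tags and was 2.37-fold higher at day 30 (1.97 to 2.86), and ETR7 (Pp1s176_126V6.1) had 91, 51, 110 and 83 tags and did not pass the call (1.79-fold, 1.33 to 2.40).

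The phototropins, receptors of blue light that steer chloroplast movement and growth, were placed in this list by their terms although they phosphorylate serine and threonine. PHOTA2 (Pp1s179_27V6.1) had 85, 69, 525 and 175 tags at the 4 days, beside 47 chloronema and 103 caulonema tags, and was 7.63-fold higher at day 24 than at day 14 (5.92 to 9.95). PHOTB1 (Pp1s84_194V6.1) had 118, 129, 356 and 12 tags, beside 7 chloronema and 76 caulonema tags, and was 2.77-fold higher at day 24 (2.26 to 3.41). At day 30 they parted: PHOTA2 kept 71.2 scaled TPM, not called against 90.0 at day 24, whereas PHOTB1 was 12.5-fold lower (7.07 to 24.4), a comparison across tag positions 2 and 1. Phytochrome 1 (Pp1s233_24V6.1), at 102, 66, 48 and 27 tags, was tested only between days 3 and 14, where it was not called.

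**Figure D5:**
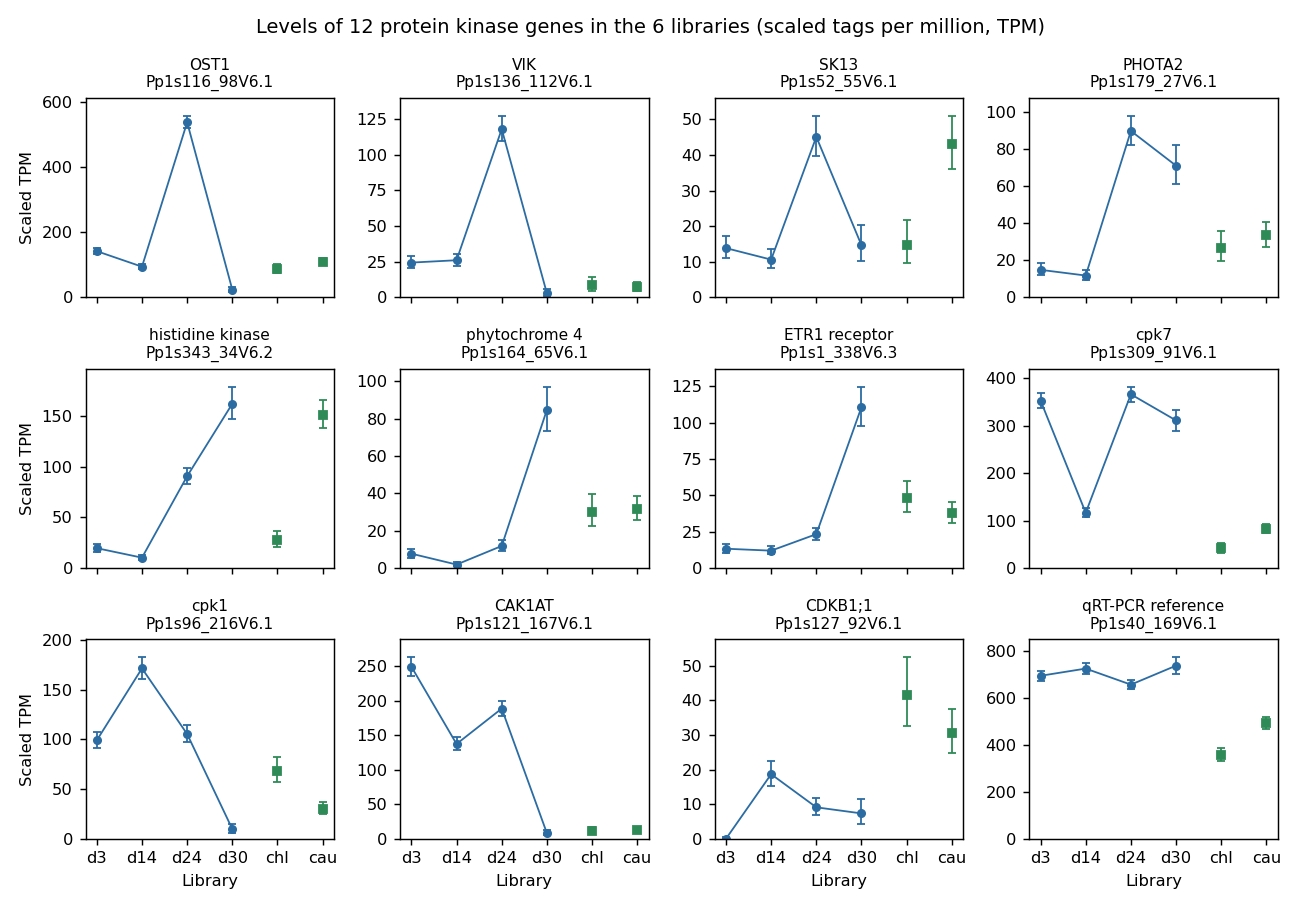
Level of 12 protein kinase genes in each library (scaled TPM, linear axes from 0 with a separate range for each gene); circles joined by lines are days 3, 14, 24 and 30, squares are chloronema and caulonema, and bars are 95% exact Poisson intervals for counting error. OST1 and VIK peak at day 24 at 537 and 118, phytochrome 4 and ETR1 at day 30 at 84.7 and 111, and Pp1s40_169V6.1 stays between 656 and 737 over the 4 days.

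Calcium-dependent protein kinases moved in several ways. By database match there were 11 in this family, and 2 of 10 tested were higher and 0 lower at day 24 against day 14, while 3 of 9 were higher and 4 lower at day 30 against day 24. cpk7 (Pp1s309_91V6.1) had 2017, 682, 2137 and 765 tags at the 4 days, beside 73 chloronema and 255 caulonema tags. It was 3.03-fold lower at day 14 than at day 3 (2.78 to 3.31) and 3.14-fold higher at day 24 (2.88 to 3.43). cpk17 (Pp1s138_79V6.1), at 1390, 812, 2631 and 434 tags, moved the same way but passed the call only at day 24, 3.25-fold higher (3.00 to 3.52), and at day 30, 2.55-fold lower (2.31 to 2.83). cpk1 (Pp1s96_216V6.1) had its maximum at day 14 with 565, 1001, 614 and 24 tags, and was 10.8-fold lower at day 30 than at day 24 (7.18 to 16.96). It was also lower in caulonema (93 tags) than in chloronema (120 tags), by 2.26-fold (1.71 to 3.00), a call that was lost with scaling to total gene tags, where the log2 ratio was -0.93. cpk9 (Pp1s205_14V6.6) declined over the days with 2084, 1430, 944 and 48 tags, yet had 325 chloronema and 668 caulonema tags. Unlike CAK1AT, cpk9 was thus low at day 30 and not in the captured cells, at 19.5 against 185 and 217 scaled TPM, and these 3 libraries were counted at the same position. Others rose at day 30: Pp1s187_77V6.1 (384 to 331 tags, 2.05-fold higher after scaling, 1.76 to 2.38), Pp1s108_32V6.1 (103 to 111 tags, 2.56-fold, 1.94 to 3.38) and Pp1s143_92V6.4 (107 to 147 tags, 3.26-fold, 2.52 to 4.22), the last 2 across different tag positions. Over the wider list of 27 kinases with metal ion or calcium terms, 6 of 23 were higher and 0 lower at day 24, and 4 of 19 were higher and 8 lower at day 30. Beside the shares of all genes (23.2% higher and 26.4% lower at day 24, 23.2% and 39.3% at day 30), the number higher at day 24 and both numbers at day 30 were near the background.

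The kinases were also listed by place and process, and their counts are to be read beside all genes tested, of which 23.2% were higher and 26.4% lower at day 24 and 23.2% higher and 39.3% lower at day 30. Of 30 membrane kinases, 9 of 28 tested were higher and 1 lower at day 24, and 3 of 25 were higher and 10 lower at day 30, where the number lower was near the background. Pp1s59_196V6.1, a membrane kinase with many tags, had 1034, 862, 2833 and 473 tags at the 4 days and was 3.29-fold higher at day 24 (3.05 to 3.56) and 2.52-fold lower at day 30 (2.29 to 2.79). Of 12 receptor and signal transducer kinases, 5 of 9 were higher and 0 lower at day 24, among them Pp1s149_39V6.1 with 230, 314, 1046 and 353 tags (3.34-fold, 2.94 to 3.80). The 13 stress and defence kinases gave 5 higher and 3 lower at day 24 and 1 higher and 7 lower of 12 at day 30. Pp1s226_63V6.1 of that list, with a term for programmed cell death, had 48, 191, 938 and 73 tags, and rose at both day 14 (3.89-fold, 2.82 to 5.45) and day 24 (4.92-fold, 4.21 to 5.78), each time between neighbouring tag positions 33 and 34. The 14 plastid kinases gave 4 higher and 1 lower of 12 at day 24, and 2 higher and 7 lower of 12 at day 30, where CKA1 went from 872 to 45 tags across different positions. Pp1s8_193V6.1 of this list, in the plastid stroma and with a disulfide oxidoreductase term, had 278, 464, 433 and 70 tags. The 3 nuclear kinases, Pp1s271_9V6.1 and Pp1s40_169V6.1 among them, gave 0 higher and 0 lower at days 14 and 24, and 1 was lower at day 30.

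Gene models of the same locus did not always move together. CKA1 (Pp1s165_119V6.1) had 653, 844, 872 and 45 tags at the 4 days, and another model of its locus, Pp1s165_119V6.2, had 156, 184, 592 and 106 tags. The first was not called at day 24 and the other was 3.23-fold higher (2.73 to 3.83). At the Pp1s51_314 locus both models rose at day 24 and fell at day 30, Pp1s51_314V6.1 from 674 to 11 tags and Pp1s51_314V6.3 from 220 to 43 tags. The models of the Pp1s274_79 locus, with a disulfide oxidoreductase term, both rose at day 14, Pp1s274_79V6.1 from 346 to 1342 tags and Pp1s274_79V6.2 from 67 to 248 tags, but had 623 and 2 tags at day 30. The tag positions of Pp1s274_79V6.2 varied between 1, 3 and 4.

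In caulonema, the fast-growing filaments that arise from chloronema, more kinase genes were higher than lower. Of 94 tested, 31 were higher in caulonema, 6 lower and 57 not called. Among all genes tested, 38.4% were called, 21.8% higher and 16.5% lower, against 33.0 and 6.38% of the kinase genes, and the median log2 ratio was 0.50 against 0.13. With DESeq2 size factors 28 were higher and 10 lower, and the median of all genes was 0.04, against 0.38 with total gene tags. Chloronema was the shallower library, and 61 of the kinase genes tested passed 100 tags only in caulonema and 3 only in chloronema. In the 30 that passed in both, 5 were higher and 3 lower (16.7 and 10%, against 7.16 and 22.1% of all such genes), and their median log2 ratio was below 0, at -0.28, against -0.35 for all such genes. Without any threshold, 50 of 500 kinase-term genes were higher and 14 lower (10 and 2.8%, against 9.78 and 8.60% of all genes with a tag in either), so the share that was higher was then near that of all genes.

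Besides Pp1s343_34V6.2, SK13 and Pp1s306_43V6.1, kinases of general annotation differed between the captured cells. Pp1s222_106V6.1, a membrane kinase, had 8 chloronema tags and 117 caulonema tags, 8.35-fold higher (4.10 to 19.8), Pp1s134_145V6.1 had 20 and 154 tags, 4.39-fold higher (2.75 to 7.39), and Pp1s323_77V6.1 had 24 and 176 tags, 4.18-fold higher (2.72 to 6.71). These 3 were also called higher at day 24 than at day 14, Pp1s222_106V6.1 and Pp1s134_145V6.1 across different tag positions. Pp1s134_145V6.1 was counted at position 1 in chloronema and at position 2 in caulonema. Pp1s207_2V6.1, a signal transducer kinase, had 50 chloronema tags and 291 caulonema tags, 3.32-fold higher (2.45 to 4.58, at different positions). Over the 4 days it varied by no more than 1.16-fold, with 394, 349, 367 and 146 tags. That range also spans different tags, at position 1 at days 3 and 14 and position 2 at days 24 and 30. Pp1s28_184V6.2, with a lyase term, had 88 and 664 tags, 4.31-fold higher (3.44 to 5.44). The 6 genes that were lower in caulonema were cpk1, Pp1s79_255V6.1 (3.43-fold, 3.08 to 3.82) and Pp1s30_365V6.1 (3.32-fold, 2.85 to 3.89), both with a structural term, Pp1s65_71V6.1, Pp1s3_320V6.1 and Pp1s79_180V6.2. Pp1s30_365V6.1 was counted at position 2 in chloronema and at position 3 in caulonema. Pp1s65_71V6.1, whose terms name endoribonuclease activity and the unfolded protein response, had 201 chloronema tags and 114 caulonema tags, 3.09-fold lower (2.44 to 3.92). Pp1s3_320V6.1, placed in the plastid stroma with starch metabolism, had 117 and 74 tags, 2.77-fold lower (2.05 to 3.76), and Pp1s79_180V6.2, placed in the vesicle coat, had 146 and 90 tags, 2.84-fold lower (2.17 to 3.74).

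Over the 4 days together, 196 of 232 kinase genes tested were called in at least 1 of the 3 sequential comparisons (84.5%, against 83.0% of all genes tested), 106 of them in 1, 71 in 2 and 19 in all 3. The kinase genes were thus called about as often as all genes. Neighbouring comparisons share a library, so a high or low day 14 or day 24 library enters 2 of them. A fall at day 14 and a rise at day 24 was found for 25 genes and the opposite for 3, and a rise at day 24 and a fall at day 30 for 45 and the opposite for 4. In 10 genes, among them WOL, SNF1b and YAK1, the calls were lower, higher and lower in turn. The share of all genes with such turns was not counted, so these numbers cannot be read as particular to the kinase genes. The highest level of the 4 days was at day 3 for 57 genes, day 14 for 31, day 24 for 85 and day 30 for 61. These were 24.4, 13.2, 36.3 and 26.1% of the kinase genes, against 23.0, 26.2, 24.6 and 26.1% of all genes over 100 tags. The kinase genes had fewer maxima at day 14 and more at day 24, a difference that was not tested. Leaving out day 30, 118 of the 234 had their highest level at day 24.

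The spread over the days was wide for most members and narrow for a few. In the 225 genes with a value at all 4 days, the highest level was 4.63-fold the lowest in the median, and over 10-fold in 48 and under 2-fold in 20. Pp1s40_169V6.1, the gene that the study used as a qRT-PCR reference for the 4 days, had 3959, 4233, 3825 and 1810 tags, or 694, 724, 656 and 737 scaled TPM, a range of 1.12-fold. The study lists these same counts and describes the gene as relatively stable, so its evenness is not a separate result. In the captured cells, for which the study used another reference gene, it had 626 and 1517 tags, or 357 and 494 scaled TPM, and was not called between them. Other genes with far fewer tags were as even over the days, Pp1s182_90V6.1 (144, 161, 152 and 59 tags, 1.15-fold) and Pp1s30_102V6.1 (98, 104, 91 and 37 tags, 1.18-fold).

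The enzymes that remove phosphate were counted beside the kinase genes. Of 52 genes with protein phosphatase terms that were not kinase members, 7 of 49 tested were higher and 8 lower at day 14, 11 of 46 were higher and 7 lower at day 24, and 12 of 40 were higher and 11 lower at day 30. All counts here are to be read beside all genes tested. Of these, 20.1% were higher and 20.3% lower at day 14, 23.2 and 26.4% at day 24, and 23.2 and 39.3% at day 30. The number of phosphatase genes higher at day 24 was near that share. The median log2 ratio of the phosphatase genes at day 24 was -0.08, near the -0.06 of all genes, where the kinase genes had 0.89. The phosphatase genes Pp1s158_5V6.1 (510 to 1328 tags) and Pp1s31_1V6.1 (185 to 804 tags) rose at day 24 and fell at day 30. In caulonema against chloronema 2 of 19 phosphatase genes were higher and 2 lower, beside 21.8 and 16.5% of all genes tested. Among 13 kinase regulators and binders, 4 of 12 were higher and 0 lower at day 14, and 3 of 12 were higher and 5 lower at day 24. Outside the kinase genes, the two-component term was carried by Pp1s184_124V6.1, a copper-transporting ATPase by its other term, with 934, 218, 995 and 216 tags, and by Pp1s105_212V6.1, with 173, 65, 32 and 53 tags, and both were lower at day 14 than at day 3. The difference between these lists and the kinase genes was not tested.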

How the data were processed

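The 6 DGE libraries, 1 per condition, were made with NlaIII and MmeI, which leave tags of 21 bases. In the deposited files each gene model has a count of tags, as the authors left it after filtering: tags of adaptor alone, with ambiguous bases, of the wrong length or seen once were dropped, and a tag was kept when it fitted 1 gene model of Phytozome and no other, perfectly or with 1 mismatch. Alignment is credited to Bowtie in the submitters' processing notes and to blastn in the methods, with versions not given in the sources used here. TPM was also deposited by the authors, a rescaling of these counts to library size, which was not tested. Counts per library began at 2, and a gene model with no value was given a floor of 3 tags per library for bounds.

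Members and lists were chosen with earlier results of these data known. Library sizes of 1733082 to 7027742 gene tags were scaled by TMM (edgeR 4.0.16, R 4.3.3). With no replicate, edgeR's quasi-likelihood test could not be fitted, so an exact two-sided binomial test of each gene's counts was used (scipy 1.17.1), adjusted over all genes tested, with Clopper-Pearson intervals for ratios and exact Poisson intervals for levels. It was tested on simulated counts of the same depths. Tables were handled in pandas 2.3.3 and numpy 2.4.6 under Python 3.11.15 and plots drawn in matplotlib 3.10.9.

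Genes were named by a rule: those the paper names by identifier, the 3 with the highest level in each library, in each comparison the 6 called genes of highest ratio and the 6 of lowest (by the interval bound nearest to 1), and the 2 with the most tags in each list. The other genes given (members of named families, of the same locus, at the threshold, of even level, or outside the kinase genes) were chosen after their values were seen. Lists were drawn from GO terms, and symbols from the files' database matches or the study's Arabidopsis homologues. Alternatives were scaling by total gene tags or by DESeq2 1.42.0 size factors, dropping the filter or applying it to the sum of both libraries, a 4-fold threshold, the same tag position, an edgeR exact test with an assumed coefficient of variation, leaving out day 30, and, added after seeing the data, over 100 tags in each library and leaving out genes with a term from a list of 9 other activities. No identifier matched the RefSeq table (0 of all genes), so no coordinates or promoter and protein sequences are given. Some loci are not reported here.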

Additional observations from a re-analysis of the deposited data

How the results depend on the processing

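Whether the called ratios of named genes would change direction could not be learned from the alternatives run. Only scaling by total gene tags or DESeq2 size factors altered a ratio, by far less than the 2-fold that a call needs. The median of the kinase genes kept its direction under the other scalings and with the same tag position, but with over 100 tags in each library it was -0.29, 0.37, 0.17 and -0.28 over the 4 comparisons, so it turned at day 30 and in caulonema. With a 4-fold threshold, the kinase genes called higher and lower were 3 and 12 at day 14, 32 and 3 at day 24, 18 and 52 at day 30, and 5 and 0 in caulonema. An edgeR exact test with an assumed coefficient of variation of 0.4, taken to stand for the unmeasured spread between plants, left 1 and 2, 3 and 0, 1 and 15, and 0 and 0, so few calls would pass if libraries varied that much. Of all genes tested, that edgeR test called 3.55, 1.55, 10.5 and 0.23% in the 4 comparisons. Of the 97 calls of named genes it left 15. Over 100 tags in each library gave 8 and 16, 26 and 9, 18 and 15, and 5 and 3. Without genes of another activity, day 14 had 14 higher genes, day 24 had 10 lower, and the caulonema median was 0.65. Total gene tags gave 9 lower at day 24 and medians of -0.65, 1.15, -0.59 and 0.75, and 6 of the 97 calls were lost. DESeq2 size factors gave 10 lower in caulonema and a median of -0.55 at day 30, and 2 calls were lost. No filter also gave 10 lower in caulonema. The same tag position left a median of -0.60 at day 30 and 74 of the 97 calls, and the others could not be tested. Without day 30, 150 of the kinase genes were called in at least 1 comparison of days, against 196. At day 30 and in chloronema, 83 and 33 kinase genes had over 100 tags. No paired analysis was possible because each condition has 1 library.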
